A study of Drosophila melanogaster with 4 samples.

Results

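The set described here consists of the 74 long noncoding RNAs (lncRNAs) that were best detected in single-cell libraries of Drosophila melanogaster testis tumors. Members carried a symbol with the prefix lncRNA: and had at least 1000 unique molecular identifiers (UMIs, counts of captured transcripts) over all cells. The dosage compensation RNAs roX1 and roX2 and the heat shock RNA Hsromega were left out. The table lists 1934 lncRNA symbols, of which 1681 had at least 1 UMI. The 74 members held 2832793 UMIs, which is 3.52% of all 80431353 UMIs and 86.4% of the UMIs of all lncRNAs. The total UMI count chose the members and is given as a description: CR43650, CR43961 and CR44389 had 1051, 1015 and 1007 UMIs and lay just inside the limit, and CR43967, CR43626 and CR43985 had 942, 902 and 871 UMIs and lay just outside it. Because the total runs over all cells, the classes with the most UMIs weighed most in it. The GSC-like class held 46295261 UMIs and the spermatocyte class 2425337 UMIs. Some members, such as CR42859, CR46148, CR46216 and CR45018, passed the limit only through the class where they were high. Their differences between classes are therefore a description.

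Long noncoding RNAs are transcripts without a recognised protein-coding frame. Some are the primary transcripts from which microRNAs are cut, some feed the Piwi-interacting RNA (piRNA) pathway that silences transposons, and many in the fly testis are transcribed during the spermatocyte stage; for most members no function is known. In the fly testis, germline stem cells (GSC) give rise to spermatocytes and sperm, and cyst stem cells (CySC) give rise to the somatic cyst cells that enclose the germ cells. Unpaired (Upd) is the secreted ligand of the JAK-STAT pathway that maintains both stem cells.

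Tumors had been driven by a UAS-Upd transgene. Nanos-Upd flies (y[1] w[1118] with P{hs70FLP}, 2 libraries) expressed it under P{w[+mC]=GAL4::VP16-nanos.UTR} in the germline, and TrafficJam-Upd flies (w[1118], 2 libraries) under traffic Jam-GAL4 in cyst cells; both carried 1 copy of UAS-FRT-H3-GFP-FRT-H3-mKO. No library of a normal testis was analysed here, and each library pooled 18 to 20 pairs of testes. The growth temperature listed for the flies was the same for every library of both tumor types. The driver cannot be told apart from the y[1] allele and the P{hs70FLP} insertion that came with it. The authors assigned every cell to the spermatocyte, GSC-like, somatic, muscle or CySC-like class.

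The 4 libraries held 20618 cells and 13190124 to 33499923 UMIs each, with a median of 3323 to 3987 UMIs per cell. The markers were checked against the class names: 12 early germline genes summed to 2247 to 3318 CPM (UMI counts per 1000000 UMIs of a class in a library) in GSC-like cells against 217 to 466 CPM in CySC-like cells, and 11 cyst lineage genes to 169 to 397 CPM against 3426 to 5257 CPM. The spermatocyte class held 94 to 249 cells per library, the somatic class 60 to 193 cells and the muscle class 78 to 84 cells. In the spermatocyte class 12 spermatid genes summed to 16010 to 38730 CPM and 15 spermatocyte genes to 793.8 to 1091 CPM. The spermatocyte genes had 299.2 to 344.4 CPM in GSC-like cells and 294.4 to 608.5 CPM in the muscle class. In the muscle class 12 muscle genes summed to 26110 to 43750 CPM. A single UMI stood for 0.0468 to 0.198 CPM in the GSC-like and CySC-like classes and for 1.08 to 4.29 CPM in the other classes, so low levels in the small classes rest on few molecules. A total of 35 cell barcodes occurred in 2 libraries. Libraries were the replicates throughout. In tests that compare classes, p-values measure how the difference within a library varies over these libraries. In tests between tumor types within a class, they measure the spread between these libraries.

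CR34335 and CR43264 made up most of the lncRNA signal. CR34335, a single-exon transcript of 361 bases within the span of DIP-alpha on the same strand (chromosome X, 3545750 to 3546110, minus strand, BDGP6.54), had 2388130 UMIs and was found in 100% of cells in every class and library. Its mean share of all UMIs was 2.10% ± 0.682 in the spermatocyte class, 2.31% ± 0.907 in GSC-like cells, 5.55% ± 1.75 in the somatic class, 7.27% ± 2.99 in the muscle class and 4.67% ± 1.53 in CySC-like cells (SD, n = 4 libraries each). Nanos-Upd replicate 2 had the lowest share in all 5 classes, and the highest library exceeded it by 2.23 to 3.24 times. CR34335 was nonetheless lower in GSC-like than in CySC-like cells within each of the 4 libraries, by 1.36 on the log2 scale (SE 0.06, edgeR adjusted p = 1.26e-08).

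CR43264, a transcript of 318 bases that lies opposite CG15765 (chromosome X, 5831898 to 5832215, minus strand), had 193513 UMIs and was the most abundant of the germline-enriched members. In GSC-like cells it had 3394 and 2094 CPM in the Nanos-Upd libraries and 5333 and 8309 CPM in the TrafficJam-Upd libraries. In CySC-like cells it had 275 and 190 CPM in the Nanos-Upd libraries and 245 and 593 CPM in the TrafficJam-Upd libraries. The 2 classes did not overlap, and the log2 fold change of GSC-like over CySC-like cells was 3.52 (SE 0.19, edgeR adjusted p = 2.89e-05). The spermatocyte class had 1050 to 4463 CPM, above every CySC-like sum and overlapping the GSC-like sums. With each cell thinned to 2200 UMIs, CR43264 was found in 77.7 to 97.6% of GSC-like and 28.3 to 63.0% of CySC-like cells; without thinning the shares were 84.8 to 99.05% and 37.8 to 74.04%, at median depths of 4004 and 3102 UMIs per cell.

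**Figure D1:**
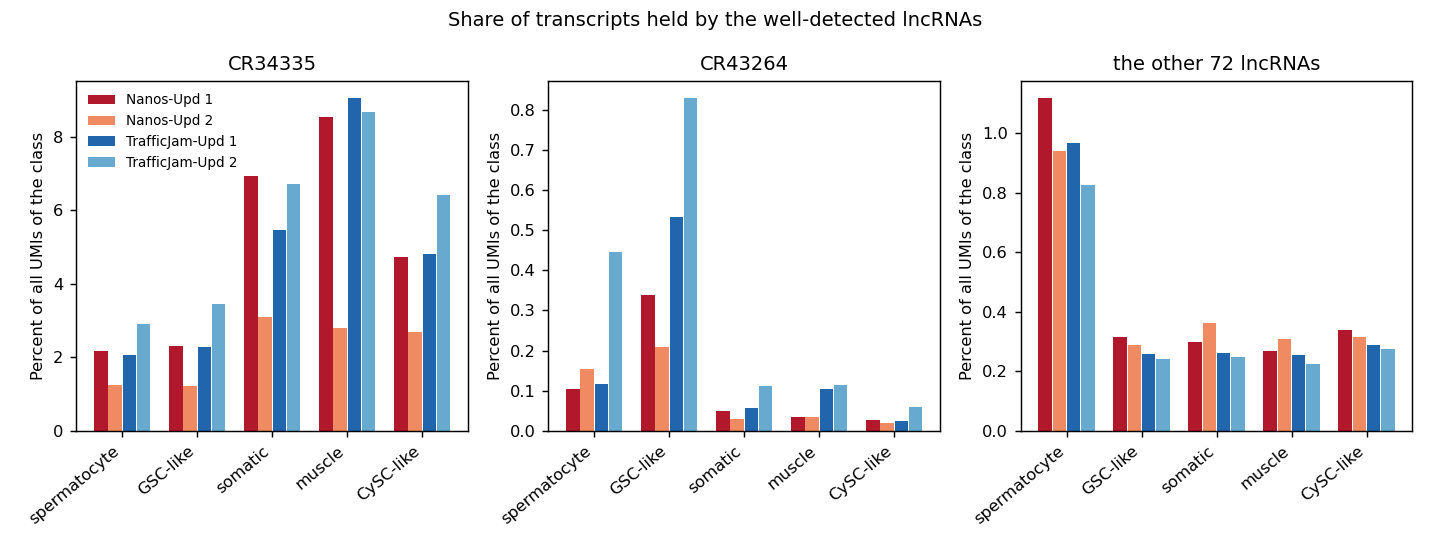
Percent of all UMIs (vertical axis) in each class (horizontal axis) held by CR34335, by CR43264 and by the other 72 lncRNAs, with 1 bar per library. CR34335 took up to 9.07% in muscle cells and was lowest in Nanos-Upd replicate 2 in every class, CR43264 was highest in GSC-like cells, and the other lncRNAs together were highest in the spermatocyte class (0.826 to 1.12%).

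By the mean over libraries, 16 members had their highest level in the spermatocyte class, 25 in GSC-like cells, 10 in the somatic class, 8 in the muscle class and 15 in CySC-like cells. The classes are the authors' own, the number of libraries is small, and these counts and the ratios below are a description. Of the 16 spermatocyte members, 15 were highest there in 4 of 4 libraries and did not overlap the next class, where 11.6% of the 6332 features with at least 1000 UMIs were highest in the spermatocyte class without overlap; the median ratio of the 16 to the next class was 40.9. Of the 25 GSC-like members, 18 were highest there in 4 of 4 libraries and 12 did not overlap the next class, with a median ratio of 3.02; 22.2% of those features were highest in GSC-like cells without overlap. In the somatic, muscle and CySC-like groups 3, 4 and 6 members were highest in 4 of 4 libraries, and the median ratios were 1.29, 1.53 and 1.33. Without overlap stood 0, 1 and 1 of these members, beside 2.4%, 2.98% and 3.49% of those features.

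**Figure D2:**
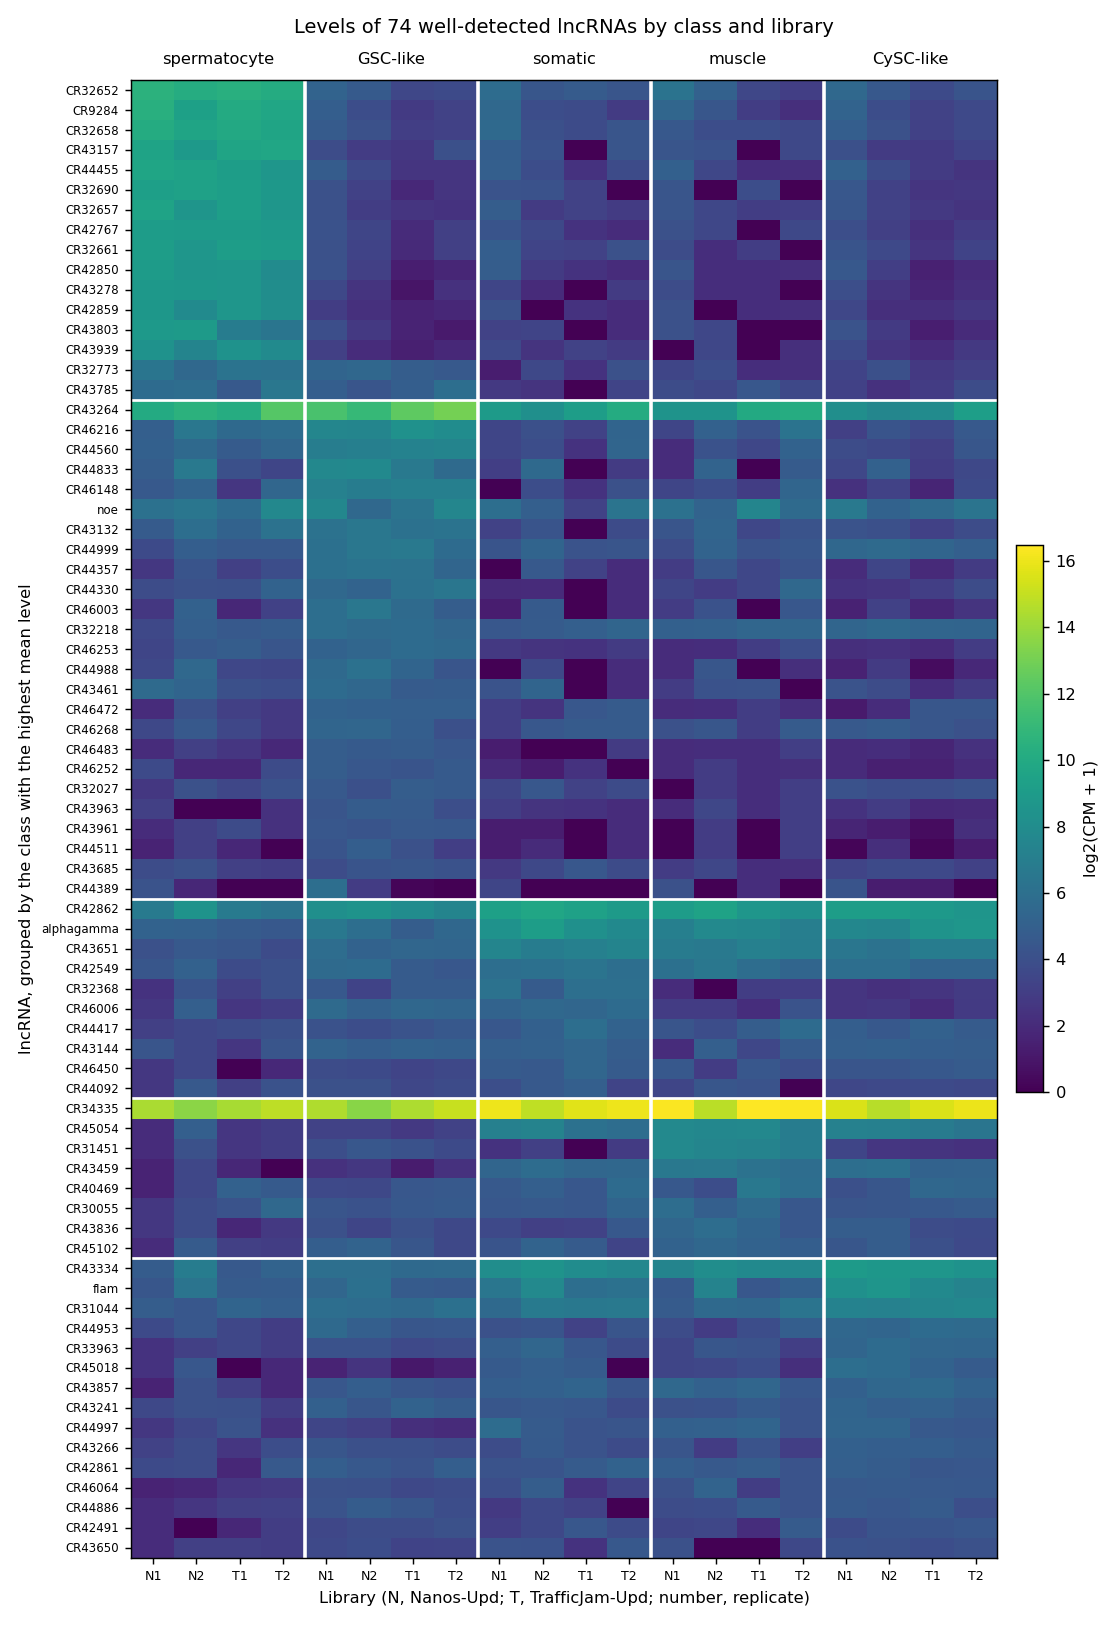
Level of each of the 74 lncRNAs (vertical axis, grouped by the class with the highest mean) in each class and library (horizontal axis), as log2(CPM + 1) in colour. The 14 spermatocyte lncRNAs that were at least 5-fold above every other class form a block that is bright in all 4 libraries of that class alone, and CR34335 is bright in all 20 columns.

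The 14 spermatocyte lncRNAs at least 5-fold above every other class summed together to 6980 to 10200 CPM per library in the spermatocyte class. CR32652, the highest of them (chromosome X, 12411018 to 12412181, minus strand), had 1521 and 1193 CPM in the Nanos-Upd and 1352 and 1132 CPM in the TrafficJam-Upd libraries of the spermatocyte class, against 36.7, 24.4, 10.5 and 12.1 CPM in GSC-like cells of the same libraries. CR9284, listed by RefSeq under the synonym Tes101, had 1356, 655, 1096 and 863 CPM in the spermatocyte class against 29.3, 14.1, 5.89 and 8.57 CPM in GSC-like cells. In both, every spermatocyte sum exceeded every sum of the other class.

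In the test of the spermatocyte class against GSC-like cells, 65.8% of all 9079 features tested were called (edgeR quasi-likelihood test, Benjamini-Hochberg adjusted p under 0.05). Of the 72 members tested, 50 were called, 16 of them higher and 34 lower in the spermatocyte class, beside 33.2% and 32.6% of all features; CR44389 and CR45018 had too few UMIs in these sums. The median log2 fold change was -0.79 over the members and -0.22 over all features. The largest increases were those of CR42859 (6.60, SE 0.37, edgeR adjusted p = 1.01e-06), CR43278 (6.57, SE 0.49), CR32690 (6.57, SE 0.41), CR9284 (6.42, SE 0.42) and CR43157 (6.38, SE 0.32). CR42859 shares exons with CG4267 on the same strand, so reads may be split between them. Members were chosen on a total of at least 1000 UMIs, to which GSC-like cells contributed most over all features. CR42859, CR43278, CR32690 and CR43157 reached that total only with their spermatocyte UMIs. Their fold changes and adjusted p-values are therefore a description. Among the 251 tested lncRNAs with at least 1 but under 1000 UMIs, 201 were higher and 16 lower in the spermatocyte class. A total under 1000 UMIs limits the level in the large GSC-like class more than in the small spermatocyte class. The direction of these counts thus depends on the selection, and they are a description.

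The members averaging at least 20 CPM that fell in the spermatocyte class included germline-enriched RNAs. CR46148, which lies opposite the homeobox gene Gsc (chromosome 2L, 588048 to 588784, plus strand), had 23.8, 36.5, 5.12 and 41.4 CPM in the spermatocyte class against 152, 122, 136 and 136 CPM in GSC-like cells. Its log2 fold change was -2.23 (SE 0.35, edgeR adjusted p = 0.000462). CR44357 (-2.36), CR46003 (-2.26), CR46472 (-2.07) and CR44833 (-2.05) fell as well, each with an edgeR adjusted p between 0.000184 and 0.00105 and in 4 of 4 libraries. The 12 early germline markers stood at 678, 1420, 689 and 739 CPM in the spermatocyte class, 23.1 to 42.8% of their level in GSC-like cells; their part in these differences was not tested.

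The same 14 spermatocyte lncRNAs were found at a low level in every other class. Their sum reached 0.641 to 2.47% of the spermatocyte level in GSC-like cells, 1.18 to 3.67% in the somatic class, at most 3.19% in the muscle class and 0.824 to 3.03% in CySC-like cells. The 12 spermatid markers showed 0.818 to 3.78% of their spermatocyte level in GSC-like cells, 2.78 to 5.40% in the somatic class, 1.11 to 4.19% in the muscle class and 1.14 to 4.42% in CySC-like cells. Within CySC-like cells both sums were highest in Nanos-Upd replicate 1, with 311 CPM for the lncRNAs and 1524 CPM for the markers. Whether these low levels are expression was not tested.

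**Figure D3:**
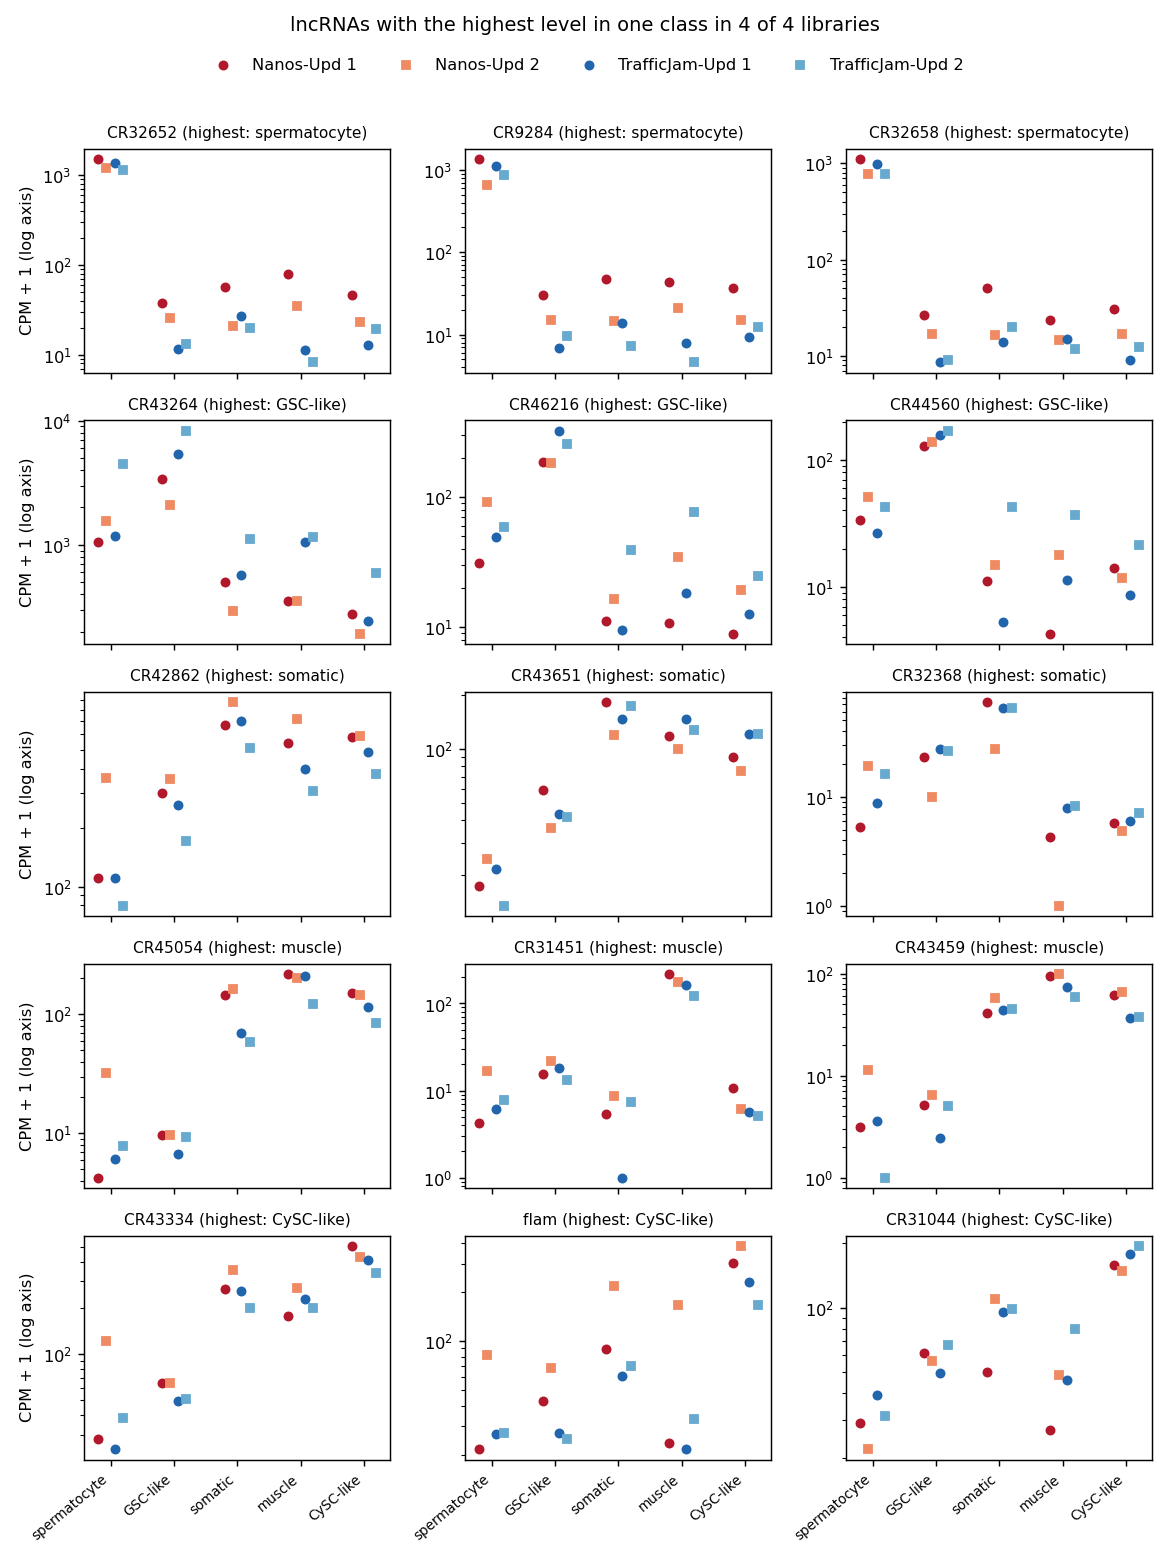
CPM + 1 on a log axis for the 3 lncRNAs with the highest mean level among those that peaked in a given class in 4 of 4 libraries, with the 5 classes on the horizontal axis and 1 point per library. CR32652, CR9284 and CR32658 stand apart in the spermatocyte class and CR31451 in the muscle class, whereas CR42862 and CR45054 overlap between the somatic, muscle and CySC-like classes.

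Between the stem-cell-like classes most members differed. Of the 74 members, 64 were called between GSC-like and CySC-like cells, with 72.6% of all 8909 features and 77.7% of the 6325 features with at least 1000 UMIs called in the same test. Of these, 25 were higher and 39 lower in GSC-like cells, beside 35.1% and 37.4% of all features, and 51 of the 64 had the same direction in 4 of 4 libraries. Of the 39 lower members, 12 belong to the 14 spermatocyte lncRNAs above, whose GSC-like means were 3.87 to 20.9 CPM against CySC-like means of 5.81 to 24.4 CPM, with overlapping classes in all 12 and log2 fold changes of -1.05 to -0.51. The 12 spermatid markers stood at 1192, 605, 317 and 449 CPM in GSC-like against 1524, 662, 443 and 641 CPM in CySC-like cells, and their part in these 12 calls was not tested; the other lower members numbered 27. The median absolute log2 fold change was 1.19 over the members and 0.62 over all features, and the values ran from -4.44 to 4.08. Among the 10 members that were not called, CR32218, CR44092 and CR45102, chosen here after their values were seen, had 52.3, 13.7 and 24.4 CPM in GSC-like and 41.8, 11.04 and 18.9 CPM in CySC-like cells on average. The fold changes include scaling factors (TMM) that the CPM do not, so the 2 can differ. CR32218, for example, had a log2 fold change of -0.003.

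Germline-enriched members were led by CR46148, with 152, 122, 136 and 136 CPM in GSC-like cells against 4.08, 8.53, 2.25 and 11.9 CPM in CySC-like cells. Its log2 fold change was 4.08 (SE 0.39, edgeR adjusted p = 0.000867), and every GSC-like sum lay above every CySC-like sum. With cells thinned to 2200 UMIs, 22.7 to 27.2% of GSC-like and 0.434 to 1.84% of CySC-like cells had a UMI of it, and 35.3 to 48.8% and 0.743 to 3.25% without thinning. CR46216 (chromosome 3L, 19243755 to 19251653, plus strand) had 184, 183, 323 and 254 CPM in GSC-like cells against 7.83, 18.3, 11.7 and 23.7 CPM in CySC-like cells (log2 fold change 3.64, SE 0.29, edgeR adjusted p = 0.000253). CR44560 averaged 148 ± 18.4 CPM in GSC-like and 12.9 ± 5.43 CPM in CySC-like cells (SD, n = 4 libraries each).

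Among members averaging at least 20 CPM in the comparison, the other leading germline members were CR44988 (log2 fold change 3.64), CR46003 (3.47), CR44357 (3.21) and CR46253 (3.09), with edgeR adjusted p-values from 3.80e-08 to 0.000590. CR44511 (log2 fold change 3.43, edgeR adjusted p = 0.00199) and CR43961 (3.22, 5.93e-05) averaged 9.61 and 11.6 CPM and are named after their values were seen. CR44988 shares exons on the opposite strand with ds, which encodes the protocadherin Dachsous, and CR44357 shares exons with CG1677. The counting strand is not given in the sources used here, so whether reads of antisense partners were counted separately is not known. The 12 members highest in GSC-like cells without overlap summed in CySC-like cells to 9.88 to 16.4% of their GSC-like level, and the 12 early germline markers to 7.29 to 15.1%; the part of germline RNA in CySC-like droplets in these levels was not tested.

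Members lower in GSC-like than in CySC-like cells were led by CR45018 and by neighbours CR45054 and CR43459. CR45018 (chromosome X, 13304005 to 13308004, plus strand) had 2.07, 4.49, 1.07 and 1.82 CPM in GSC-like cells against 59.7, 54.2, 35.8 and 25.1 CPM in CySC-like cells (log2 fold change -4.44, SE 0.27, edgeR adjusted p = 9.08e-06). It shares exons on the same strand with IP3K2, an inositol trisphosphate kinase gene, which averaged 4.06 CPM in GSC-like and 88.5 CPM in CySC-like cells (log2 fold change -4.72, edgeR adjusted p = 8.69e-05), so the counts of the pair may not be separate. CR45054 (chromosome 3R, 10083381 to 10090525, plus strand) had 5.71 to 8.70 CPM in GSC-like cells against 83.6 to 150 CPM in CySC-like cells (log2 fold change -4.28, SE 0.17, edgeR adjusted p = 2.15e-07). In both, the classes did not overlap.

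**Figure D4:**
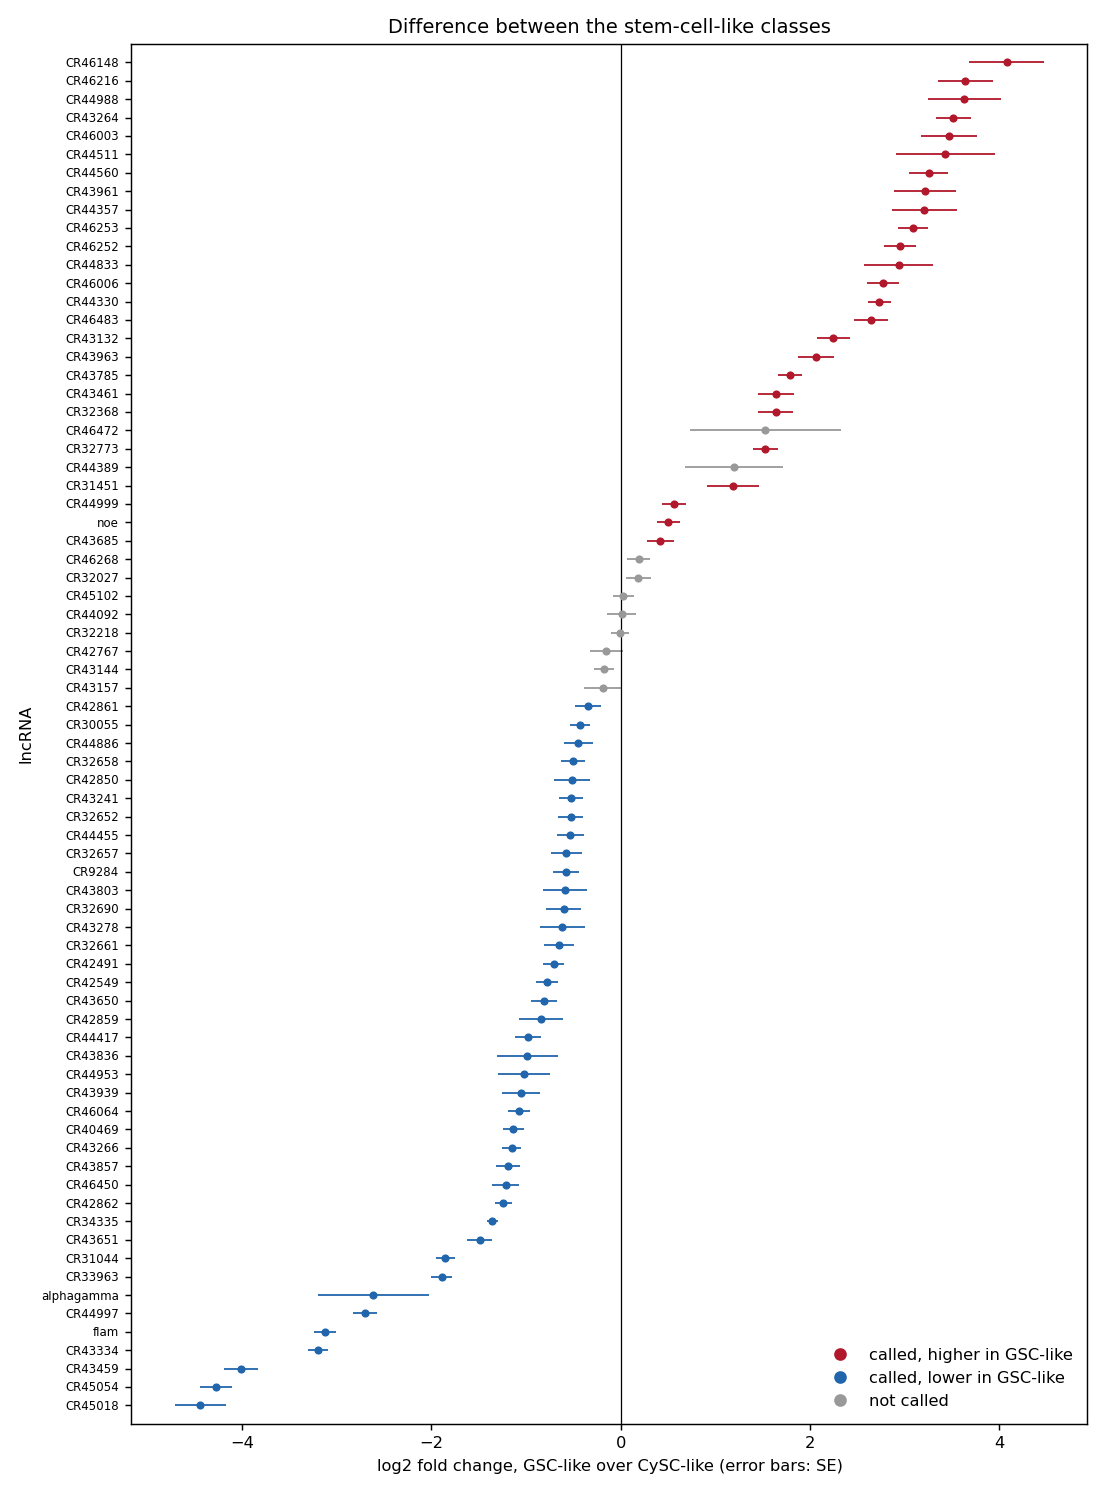
Log2 fold change of GSC-like over CySC-like cells with its standard error (horizontal axis) for each of the 74 lncRNAs (vertical axis), in red where called and higher in GSC-like cells, in blue where called and lower, and in grey where not called. The values run from -4.44 for CR45018 to 4.08 for CR46148, and alphagamma-element:CR32865, CR44511 and CR46472 have the widest error bars.

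A group of 6 members is listed by RefSeq as primary microRNA transcripts, a grouping made after the values were seen. Of the 23 lncRNAs of the table with such a synonym, the remaining 17 had fewer than 1000 UMIs. These counts are of polyadenylated precursor RNA and not of the mature microRNAs. All 6 were called between the stem-cell-like classes: 5 were lower and CR46006 was higher in GSC-like cells. With 72.6% of all features and 77.7% of those with at least 1000 UMIs called in this test, nothing particular to the group is read from that count.

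CR43334, the primary transcript of bantam, a microRNA that promotes growth and blocks cell death (chromosome 3L, 628435 to 643900, plus strand), was the most abundant of them. It had 64.1, 64.1, 48.6 and 49.8 CPM in GSC-like cells against 506, 428, 406 and 334 CPM in CySC-like cells (log2 fold change -3.20, SE 0.11, edgeR adjusted p = 3.03e-09). The classes did not overlap. It was also lower in the somatic class (269 ± 63.9 CPM) and in the muscle class (217 ± 40.2 CPM) than in CySC-like cells (418 ± 70.9 CPM; SD, n = 4 libraries each), by 0.56 and 0.75 on the log2 scale (edgeR adjusted p = 0.00432 and 0.00142). CR43459, the primary transcript of mir-277 and mir-34 and a neighbour of CR45054 on chromosome 3R, had 4.13, 5.42, 1.43 and 4.03 CPM in GSC-like cells against 60.4, 65.8, 35.5 and 36.6 CPM in CySC-like cells. Its log2 fold change was -4.01 (SE 0.18, edgeR adjusted p = 8.69e-08), and in muscle cells it was higher than in CySC-like cells, at 80.5 ± 19.1 against 49.5 ± 15.8 CPM (log2 fold change 0.91, edgeR adjusted p = 0.00137).

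CR31044, the primary transcript of mir-279 and mir-996, had 60.4, 55.7, 48.7 and 66.4 CPM in GSC-like cells against 156, 147, 177 and 194 CPM in CySC-like cells (log2 fold change -1.85, SE 0.10, edgeR adjusted p = 4.42e-08). The microRNA mir-279 is known to restrain JAK-STAT signalling in fly ovarian border cells. CR43651, the primary transcript of mir-14, a suppressor of cell death, was lower in GSC-like cells (44.1 ± 9.63 CPM) than in CySC-like cells (101 ± 22.7 CPM), with a log2 fold change of -1.49 (edgeR adjusted p = 1.45e-05). CR43650, the primary transcript of mir-8, a member of the mir-200 family, differed least, with 10.9 ± 2.18 CPM in GSC-like against 15.6 ± 1.05 CPM in CySC-like cells and a log2 fold change of -0.81 (edgeR adjusted p = 0.000309).

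CR46006, the primary transcript of mir-276a and mir-276b (chromosome 3L, 10323501 to 10367450, plus strand), ran the other way. It had 50.2, 32.9, 44.5 and 39.5 CPM in GSC-like cells against 4.73, 5.29, 3.15 and 5.93 CPM in CySC-like cells (log2 fold change 2.78, SE 0.17, edgeR adjusted p = 2.30e-07). In the somatic class it had 36.1, 46.0, 42.9 and 53.8 CPM, so GSC-like and somatic cells overlapped whereas CySC-like cells lay below both. The germline-enriched CR46003 lies nearby on the opposite strand (chromosome 3L, 10286945 to 10307968, minus strand), with 1.44, 24.5, 0 and 3.17 CPM in the somatic class.

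A set of 3 members consists mostly of transposon sequence by the annotation: CR46472 with 100% of its exonic bases, flam with 89.0% and alphagamma-element:CR32865 with 75.7%. Reads from such sequence can match other copies, so their counts are uncertain. flam, the flamenco locus (chromosome X, 21631891 to 21790731, plus strand), is the piRNA cluster that silences retrotransposons in the somatic cells of the gonad. It had 41.9, 67.4, 26.1 and 23.8 CPM in GSC-like cells against 303, 385, 229 and 165 CPM in CySC-like cells (log2 fold change -3.12, SE 0.12, edgeR adjusted p = 8.71e-09), without overlap. It was also lower in the somatic class, by 1.29 on the log2 scale (edgeR adjusted p = 3.30e-05; 0.0543 with no library block), and in the muscle class, by 2.16 (edgeR adjusted p = 0.000489), than in CySC-like cells.

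The alphagamma-element:CR32865, which belongs to the repeats of the hsp70 region that are transcribed after heat shock (chromosome 3R, 12475336 to 12478267, minus strand), averaged 57.1 ± 29.1 CPM in GSC-like against 281 ± 109 CPM in CySC-like cells (SD, n = 4 libraries each). Its log2 fold change of -2.61 (SE 0.59, edgeR adjusted p = 0.0234) was lost on leaving out Nanos-Upd replicate 2 (adjusted p = 0.0742) or TrafficJam-Upd replicate 1 (0.0620) and with no filter on low counts (0.0583). CR46472 (chromosome X, 21520175 to 21527105, plus strand) had 35.6, 31.9, 31.2 and 31.1 CPM in GSC-like cells against 1.31, 3.34, 20.7 and 20.6 CPM in CySC-like cells. Its difference between the classes was large in the Nanos-Upd libraries and small in the TrafficJam-Upd libraries, and it was not called (log2 fold change 1.53).

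The only other member with a name in place of a CR number, noe, had 199, 47.0, 81.6 and 184 CPM in GSC-like cells against 98.8, 35.4, 51.4 and 81.6 CPM in CySC-like cells. The classes overlapped, but GSC-like cells were higher within each library (log2 fold change 0.50, SE 0.12, edgeR adjusted p = 0.00519; 0.295 with no library block). CR42862, next after CR43264 by total UMIs, averaged 271 ± 77.7 CPM in GSC-like against 507 ± 98.5 CPM in CySC-like cells (log2 fold change -1.24, edgeR adjusted p = 4.09e-07). It shares exons with CG33229, which had a log2 fold change of -1.24.

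The somatic class differed from CySC-like cells in few members. Of 67 members tested, 13 were called, 6 higher and 7 lower in the somatic class, beside 24.9% of all 7838 features (14.8% higher and 10.1% lower). The largest changes were those of CR32368 (chromosome 3L, 7915437 to 7915846, plus strand), with 72.1, 26.1, 64.3 and 63.3 CPM in the somatic class against 4.73, 3.90, 4.94 and 6.13 CPM in CySC-like cells (log2 fold change 3.54, SE 0.29, edgeR adjusted p = 1.02e-07), and CR46006 (log2 fold change 3.28, SE 0.29, edgeR adjusted p = 2.78e-07). Neither overlapped between the classes. CR43264 (0.99), CR43651 (0.74) and CR42862 (0.53) were higher by smaller amounts, and the calls of CR43264 and CR43651 were lost with no library block (adjusted p = 0.243 and 0.0655). The 4 hub markers, which include the driven upd1, summed to 440 to 1081 CPM in the somatic class against 104 to 151 CPM in CySC-like cells. In CySC-like cells upd1 alone had 4.24 and 10.9 CPM in Nanos-Upd and 77.4 and 65.8 CPM in TrafficJam-Upd libraries. Terminal epithelium and seminal vesicle markers averaged 6145 CPM in the somatic class and 6146 CPM in CySC-like cells. The part of either list in these differences was not tested.

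Among the members averaging at least 20 CPM that were lower in the somatic class, CR44953 averaged 15.5 ± 4.78 CPM against 47.3 ± 6.36 CPM in CySC-like cells (log2 fold change -1.40, edgeR adjusted p = 0.000729). CR45018, CR31044 and CR44999 were lower by 1.04, 0.88 and 0.74 on the log2 scale. CR44886, named after its value was seen, averaged 13.9 CPM and had a log2 fold change of -1.59 (edgeR adjusted p = 0.00657). The call of CR44999 was lost in 8 of 12 alternatives, and that of CR45018 in 4 of 12, among them the fit without Nanos-Upd replicate 1 (adjusted p = 0.134).

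The muscle class had 20 of 66 members tested called against CySC-like cells, 13 higher and 7 lower, beside 28.2% of all 7526 features (15% higher and 13.2% lower). CR31451 (chromosome 3R, 23983503 to 23985065, plus strand) stood apart, with 217, 176, 162 and 122 CPM in muscle cells against 9.63, 5.10, 4.64 and 4.15 CPM in CySC-like cells (log2 fold change 5.08, SE 0.21, edgeR adjusted p = 1.61e-14). Every other class stayed at or below 21.0 CPM. With cells thinned to 2200 UMIs, 23.3 to 34.0% of muscle and 0.969 to 1.99% of CySC-like cells had a UMI of it (32.1 to 47.6% and 1.37 to 3.15% without thinning). CR43836 and CR45102 were higher by 1.18 and 1.13 on the log2 scale, at 39.8 ± 14.8 against 20.4 ± 8.74 CPM and 35.7 ± 6.31 against 18.9 ± 7.17 CPM in muscle and CySC-like cells; the call of CR43836 was lost at 3000 UMIs or more per cell (adjusted p = 0.0647).

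The germline-enriched CR43264, CR46216, CR44330, CR44357 and CR46148 were also called higher in muscle than in CySC-like cells; the last 3 averaged under 20 CPM here and are named after their values were seen. CR46216, for example, had 9.71, 33.9, 17.3 and 75.4 CPM in muscle cells against 7.83, 18.3, 11.7 and 23.7 CPM in CySC-like cells. The 12 early germline markers stood at 304, 701, 200 and 675 CPM in muscle cells against 304, 466, 217 and 340 CPM in CySC-like cells, and their part in these calls was not tested. Without TrafficJam-Upd replicate 2 the calls of CR43264 (adjusted p = 0.0611) and CR46216 (0.180) were lost, and likewise with no library block (0.0828 and 0.108). Besides flam, the lowest in muscle relative to CySC-like cells among members averaging at least 20 CPM were CR45018 (-2.02), CR31044 (-1.61), CR33963 (-1.51) and CR44953 (-1.43). CR32027, named after its value was seen, averaged 9.93 CPM and had a log2 fold change of -1.66 (edgeR adjusted p = 0.0348).

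Between tumor types, 11 of 74 members were called in GSC-like cells, 8 higher and 3 lower in Nanos-Upd tumors, beside 3.12% of all 9466 features (2.05% higher and 1.07% lower). In CySC-like cells 7 of 72 were called, 3 higher and 4 lower, beside 2.84% of all 8701 features (1.57% higher and 1.26% lower). With no test of the difference between these shares, nothing particular to lncRNAs is read from them. The tumor types did not overlap in 52 of the 74 members in GSC-like cells and in 44 of the 72 in CySC-like cells, beside 59.7% and 60.5% of all features tested. The counts depended on which library was left out, and each such fit left a lone library in its tumor type.

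In GSC-like cells the largest difference among members averaging at least 20 CPM was that of CR44833, with 205 and 227 CPM in Nanos-Upd against 98.5 and 50.4 CPM in TrafficJam-Upd tumors (log2 fold change 1.40, SE 0.26, edgeR adjusted p = 0.0159). It shares exons on the opposite strand with ovo, which encodes a germline transcription factor. CR42549, which shares exons with mura, had 51.2 and 53.5 CPM in Nanos-Upd against 25.4 and 21.1 CPM in TrafficJam-Upd tumors (log2 fold change 1.03, SE 0.19, edgeR adjusted p = 0.0115). flam had 41.9 and 67.4 CPM in Nanos-Upd against 26.1 and 23.8 CPM in TrafficJam-Upd tumors (log2 fold change 0.98, edgeR adjusted p = 0.0310), a call that was lost without Nanos-Upd replicate 2 (adjusted p = 0.154). The 11 cyst lineage markers stood at 211.5 and 397 CPM in Nanos-Upd against 169 and 240.5 CPM in TrafficJam-Upd GSC-like cells, and their part in the call of flam was not tested. The tumor types did not overlap in any of these.

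The other 5 members that were higher in Nanos-Upd GSC-like cells, CR32652, CR32658, CR42850, CR43803 and CR44455, all belong to the spermatocyte group. CR32652 had 36.7 and 24.4 CPM in Nanos-Upd against 10.5 and 12.1 CPM in TrafficJam-Upd tumors (log2 fold change 1.27, SE 0.25, edgeR adjusted p = 0.0133). The 12 spermatid markers moved with them, at 1192 and 605 CPM in Nanos-Upd against 317 and 449 CPM in TrafficJam-Upd GSC-like cells, and their part in these calls was not tested. The 4 members besides CR32652 averaged under 20 CPM and are named after their values were seen. In the spermatocyte class itself CR43803 had 466 and 504 CPM in Nanos-Upd against 118 and 84.1 CPM in TrafficJam-Upd tumors, a description with no test.

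Lower in Nanos-Upd GSC-like cells were CR44330, with 46.2 and 37.2 CPM against 70.0 and 88.1 CPM in TrafficJam-Upd tumors (log2 fold change -1.08, SE 0.21, edgeR adjusted p = 0.0126; 0.0602 without TrafficJam-Upd replicate 2), and CR46216, with 184 and 183 CPM against 323 and 254 CPM (log2 fold change -0.80, edgeR adjusted p = 0.0369, lost in 5 of 13 alternatives). CR40469 (chromosome X, 122493 to 122706, plus strand), whose GSC-like result is given after its value was seen, was lower in both stem-cell-like classes of the Nanos-Upd tumors. It had 11.2 and 10.8 CPM in Nanos-Upd against 20.9 and 23.5 CPM in TrafficJam-Upd GSC-like cells (log2 fold change -1.17, edgeR adjusted p = 0.0155). Its CySC-like sums had 15.5 and 19.8 CPM in Nanos-Upd against 45.1 and 40.5 CPM in TrafficJam-Upd tumors (log2 fold change -1.43, SE 0.16, edgeR adjusted p = 0.00277).

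Among the CySC-like sums, the alphagamma-element:CR32865 had 199 and 180 CPM in Nanos-Upd against 346 and 400 CPM in TrafficJam-Upd tumors (log2 fold change -1.13, SE 0.14, edgeR adjusted p = 0.00511). CR46472, also named here after its value was seen, had 1.31 and 3.34 CPM in Nanos-Upd against 20.7 and 20.6 CPM in TrafficJam-Upd tumors (log2 fold change -3.22, SE 0.34, edgeR adjusted p = 0.00237). The tumor types did not overlap in either. A pair of primary microRNA transcripts was called in opposite directions: CR43651 (mir-14) had 89.1 and 74.2 CPM in Nanos-Upd against 119 and 120 CPM in TrafficJam-Upd tumors (log2 fold change -0.71, edgeR adjusted p = 0.0440), and CR43459 (mir-277 and mir-34) had 60.4 and 65.8 CPM in Nanos-Upd against 35.5 and 36.6 CPM (log2 fold change 0.65, edgeR adjusted p = 0.0438).

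CR43836 had 27.4 and 28.4 CPM in Nanos-Upd against 13.3 and 12.2 CPM in TrafficJam-Upd CySC-like cells (log2 fold change 0.97, edgeR adjusted p = 0.0233). CR44997 had 40.6 and 39.6 CPM in Nanos-Upd against 22.8 and 21.4 CPM in TrafficJam-Upd CySC-like cells (log2 fold change 0.71, edgeR adjusted p = 0.0438). The calls of CR43836, CR44997, CR43459 and CR43651 were lost in 2, 6, 5 and 3 of 13 alternatives. With TrafficJam-Upd replicate 2 left out their adjusted p-values were 0.144, 0.237, 0.153 and 0.146, and with TrafficJam-Upd replicate 1 left out those of CR43836, CR44997 and CR43459 were 0.0759, 0.131 and 0.164. Of the 4 pigment and fat body markers, only apolpp and w were found in CySC-like cells, with Fbp1 and Lsp2 at 0. Their sum was 62.2 and 33.2 CPM in Nanos-Upd against 430 and 310 CPM in TrafficJam-Upd CySC-like cells. The GAL4::VP16-nanos.UTR insertion, which carries a w[+mC] marker, was in the Nanos-Upd flies, where the sum was lower. No cell type is read from this sum. The part of apolpp and w in these calls was not tested.

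**Figure D5:**
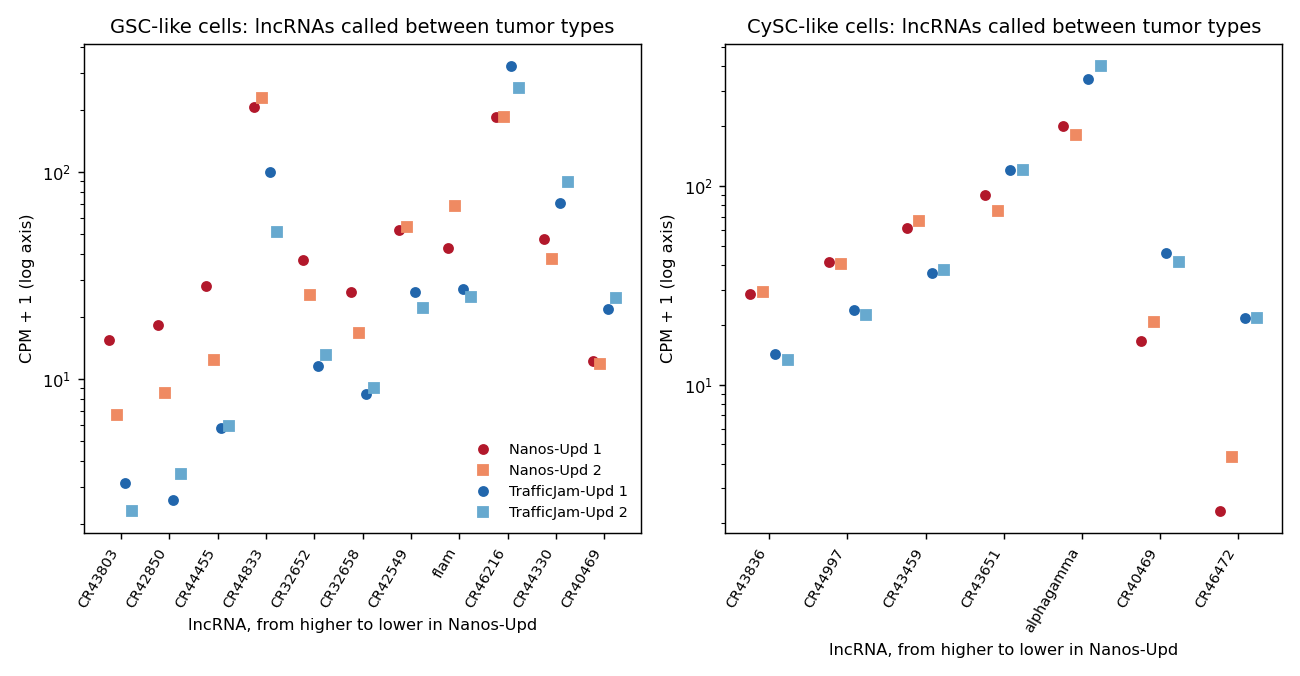
CPM + 1 on a log axis for the lncRNAs called between tumor types (horizontal axis) in GSC-like cells (left) and CySC-like cells (right), with 1 point per library. The lncRNAs shown were chosen by this call, so the separation of the Nanos-Upd libraries (red and orange) from the TrafficJam-Upd libraries (blue) is a description; it is widest for CR46472 in CySC-like cells, at 1.31 and 3.34 against 20.7 and 20.6 CPM.

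The effect of tumor type differed between GSC-like and CySC-like cells in 6 of 74 members by a test of the interaction, beside 1.35% of all 9787 features (0.787% with a positive and 0.562% with a negative value). For CR46472 the interaction was 3.06 on the log2 scale (SE 0.30, edgeR adjusted p = 1.15e-07): it had 35.6 and 31.9 CPM in Nanos-Upd against 31.2 and 31.1 CPM in TrafficJam-Upd GSC-like cells (log2 fold change -0.04), beside the CySC-like values above. For the alphagamma-element:CR32865 it was 1.97 (SE 0.21, edgeR adjusted p = 1.03e-06), with 96.0 and 59.9 CPM in Nanos-Upd against 27.7 and 45.0 CPM in TrafficJam-Upd GSC-like cells, the opposite order to CySC-like cells. For CR44953 it was 1.12 (SE 0.21, edgeR adjusted p = 0.00118; 0.0531 without Nanos-Upd replicate 1), with 48.4 and 30.1 CPM in Nanos-Upd against 20.0 and 21.1 CPM in TrafficJam-Upd GSC-like cells, and 44.4 and 39.8 CPM against 53.3 and 51.8 CPM in CySC-like cells. CR43836 had an interaction of -1.34 (edgeR adjusted p = 0.00317), which was lost with DESeq2 (0.304), on leaving out Nanos-Upd replicate 2 (0.248) and on leaving out TrafficJam-Upd replicate 1 (0.110). The number of interaction calls depended on which library was left out.

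Position and structure of the members were taken from the annotation and are given with no test. On the X chromosome lay 29 of the 74 members (39.2%), against 12.3% of all lncRNAs and 15.0% of all features of the table. The X-linked number was 9 of the 16 spermatocyte members, 9 of the 25 GSC-like members, 0 of the 10 somatic members, 4 of the 8 muscle members and 7 of the 15 CySC-like members. Members had a median exonic length of 1066 bases (213 to 21024), and 22 (29.7%) had a single exon, against 65.3% of 1604 lncRNAs with at least 1 but under 1000 UMIs. CR32657, CR32658 and CR43961 lie within Ten-a on the X chromosome; the first pair is in the spermatocyte group and on the strand of Ten-a, and CR43961 is in the GSC-like group on the opposite strand. CR32661 and CR43157, also of the spermatocyte group, lie next to each other on the X chromosome.

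Exons of 13 members overlapped those of a protein-coding gene on the same strand and those of 2 members on the opposite strand. In the comparison of GSC-like with CySC-like cells 13 of these 15 pairs could be tested, and both partners were called in 8, in a test that called 72.6% of all features. In 7 of the 8 both changed in the same direction, beside 35.1% of all features higher and 37.4% lower, and nothing particular to these pairs is read from the counts. Examples were CR33963 (-1.89) and Tis11 (-1.42), an RNA-binding protein gene that promotes mRNA decay, and CR44833 (2.94) and ovo (3.61). Shared reads between the partners cannot be told apart from shared expression in these counts. The exception was CR43963, which was higher in GSC-like cells (2.07, edgeR adjusted p = 2.74e-06), whereas its partner Smr, a transcriptional corepressor gene, was lower (-0.48, edgeR adjusted p = 0.000914).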

How the data were processed

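The authors deposited raw UMI counts per gene and cell and a table of cell annotations with each cell's library, class, and percent of mitochondrial and ribosomal UMIs. Libraries were made with the 10x Chromium Single Cell 3' kit, version 3.1, per the labels' protocols. Cell Ranger 7.0.0, Seurat 5.0.3 and the genome build dm6 are named in the submitters' processing notes. How classes were assigned, the counting strand and any removal of doublets are not given in the sources used here. Deposited cells had 2200 to 7499 UMIs, and the deposited counts summed to the deposited total in all 20618 cells.

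Members and lists were chosen with earlier results of these data known. Each class in each library gave 1 sum of counts per feature. These sums were tested with edgeR 4.0.16 in R 4.3.3 (robust quasi-likelihood test, TMM factors, features kept by filterByExpr), with the library as a block between classes, and p-values were adjusted (Benjamini-Hochberg) over all features tested; a feature was called at an adjusted p under 0.05. Class comparisons share the GSC-like or CySC-like sums. Levels are CPM without length correction, since 3' counts do not scale with length. They are also without the TMM factors that the fold changes include. The named members were the 8 (stem-cell-like classes) or 5 (other comparisons) called members that changed most upwards and downwards, provided that they averaged 20 CPM or more and moved alike in 4 of 4 libraries or, between tumor types, did not overlap; the 5 with the most UMIs; those with a name; and the 3 highest per class. Others are said to be chosen later. The test was checked on simulated counts. Genes were matched to Ensembl release 115 (BDGP6.54) and RefSeq synonyms; all 74 members matched the former and 73 the latter.

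Alternatives were DESeq2 1.42.0, RLE size factors, no filter, at least 3000 UMIs per cell, no mixed cells (UMIs of at least 2 germline and 2 cyst markers), no library block, a replicate block, and each library left out; a strict mixed-cell rule, a fit without CR34335 and crossed replicate numbers were chosen after seeing the data. No doublet caller was run. Figures were drawn with matplotlib 3.10.9.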

Additional observations from a re-analysis of the deposited data

Results flagged for a closer look

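The difference of CR45018 between muscle and CySC-like cells was -1.31 on the log2(CPM + 1) scale in TrafficJam-Upd replicate 1, set apart from -2.50, -2.31 and -2.51 in the other libraries. It was the only such case among 49 groups of 4 libraries examined, of which about 1 in 20 is set apart by chance. CR45018 had 9.71, 10.2, 13.8 and 3.59 CPM in the muscle class, where a single UMI stood for 3.24 to 3.59 CPM. These differences therefore rest on few molecules.

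The effect of tumor type differed between GSC-like and CySC-like cells, by edgeR's test of the interaction, in 6 members: CR46472 (3.06), alphagamma-element:CR32865 (1.97), CR44953 (1.12), CR43836 (-1.34), CR43264 (-0.67) and CR44389 (4.47). For CR43264 the edgeR adjusted p was 0.0420, and the call was lost in 7 of 11 alternatives. CR44389 had 60.04 and 6.55 CPM in Nanos-Upd against 0.178 and 0 CPM in TrafficJam-Upd GSC-like cells, and 18.6 and 1.48 CPM in Nanos-Upd against 1.35 and 0 CPM in TrafficJam-Upd CySC-like cells. A count of 0 allows up to 0.390 CPM in GSC-like and 0.593 CPM in CySC-like cells of TrafficJam-Upd replicate 2, for counting error only. Most of its UMIs came from Nanos-Upd replicate 1, and the call (edgeR adjusted p = 0.0295) was lost with DESeq2 (adjusted p = 0.152), at 3000 UMIs or more per cell (0.306) and without TrafficJam-Upd replicate 1.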

How the results depend on the processing

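Left-out libraries gave 54 to 61 members called between GSC-like and CySC-like cells and 38 to 57 for the spermatocyte class. They gave 9 to 13 for the somatic class and 15 to 18 for the muscle class. The share of all features called under each alternative is not given here. Nothing particular to the members is therefore read from the counts in this section. With no library block 46 members were called between GSC-like and CySC-like cells, 23 higher and 23 lower, the somatic class had 7 and the muscle class 13, and at 3000 UMIs or more per cell the muscle class had 13; the cause was not tested. Between tumor types in GSC-like cells the number was 27 with no filter, 7 at 3000 UMIs or more, 22 without mixed cells and 22 under the strict rule, and 16 to 24 with a library left out, which leaves a lone library assumed to vary like the others. In CySC-like cells it was 12 with DESeq2, 25 with no filter, 4 at 3000 UMIs or more, 11 under the strict rule and 4 to 23 with a library left out. Interaction calls numbered 3 with DESeq2 and 3 to 11 with a library left out. CR44389's interaction turned to -0.50 without mixed cells, a rule that removed 83.9% of the CySC-like class and 22.7% of the GSC-like class, against 23.2% and 22.5% for the strict rule.

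What the replicate numbers mark is not given. The differences between replicates 1 and 2 of the tumor types correlated over features at -0.174 for GSC-like cells, and at -0.137 for the CySC-like class. With 4 libraries, these values cannot show whether libraries of the same number share a day or batch. With the replicate number as a block, the calls numbered 22 for GSC-like cells, and 5 for the CySC-like class; with crossed pairing, chosen after seeing the data, 36 and 17. For single named members, 746 of 808 alternative values kept direction and call, and 61 kept direction but lost the call. Small classes limit what low levels can show.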
